A study of Homo sapiens with 10 samples.

Results

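The siRNA siGGGGGC, titled siMxy in the sample labels, was followed over time in HeyA8 cells, a human ovarian cancer cell line. The question was which of its effects on RNA levels were already there at 24 h, which came only at 48 h, and which grew, faded or turned around between those times. The comparison used 8 of the 10 libraries of the series, with 2 libraries in each of 4 groups: siNT1 at 24 h, siGGGGGC at 24 h, siNT1 at 48 h and siGGGGGC at 48 h. Every statement below on which libraries were high, low or apart covers these 8 libraries and not the other two. siNT1, which carries the suffix S2'OM in the labels, is the non-targeting control duplex. All cells were parental HeyA8 and received 10 nM of siRNA by reverse transfection. Duplicate wells were transfected for each group, so error terms and p-values measure the spread of wells and libraries. In the wells kept to 48 h the medium was changed at 24 h, so time in culture, fresh medium and time after transfection cannot be told apart within either arm, and the siNT1 arm carried the same handling.

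An siRNA guide strand is loaded into an Argonaute protein and can bind messenger RNAs as a microRNA does, through the 6 bases at positions 2 to 7, its seed. Seed pairing to the 3′ untranslated region (3′ UTR) lowers the stability and translation of the bound messenger RNA, and each guide can act on many messages at a time. Some G-rich seeds are toxic to cancer cells, a form of death attributed to the loss of many survival genes together. Direct targets of a guide start to fall within hours, while stress responses, cell cycle exit and changes in secreted or matrix proteins usually take longer, which is why a second time point is informative.

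The guide itself is named by its seed, GGGGGC. The siRNA shares it with natural microRNAs, and the mature sequences from RefSeq (GRCh38.p14) that hold GGGGGC at positions 2 to 7, here in capitals, are shown because any message with the matching word GCCCCC can pair with it.
hsa-miR-4488, chr11:61508599-61508616, plus strand: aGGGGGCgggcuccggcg
hsa-miR-1237-5p, chr11:64368651-64368671, plus strand: cGGGGGCggggccgaagcgcg

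Library totals ranged from 19781445 to 42428986 counts, and the siNT1 libraries at 48 h were the deepest. RN7SL2 and SNORD3A, abundant small structural RNAs, took between 19.8% and 31.1% of a library, lowest in replicate 1 of siNT1 at 48 h. Of the markers of the cultured line, 9 of 10 were measured, with KRT8, KRT18, VIM and PAX8 expressed and CDH1 too low to test. None of the 6 leukocyte or 3 erythroid markers passed the filter on low counts, and the 3 endothelial markers that passed had mean normalised counts of 4.65 to 19.9.

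The effect of siGGGGGC differed between the times for many genes. A gene's time effect was measured as an interaction, that is the log2 fold change of siGGGGGC over siNT1 at 48 h minus the same fold change at 24 h, so that a positive value means that the effect moved upward. A gene was called at an adjusted p below 0.05 and a log2 difference beyond 1. Of 16905 genes tested 1893 were called, which is 11.2%, with 817 higher (4.83%) and 1076 lower (6.36%) at 48 h than at 24 h. Without any filter on low counts the split was 726 higher and 1551 lower, beside an all-gene median interaction of 0.14 in place of -0.011. At an adjusted p below 0.05 alone, 4833 genes (28.6%) passed. Fewer genes passed a test against a log2 difference of 1 itself, 138 higher and 188 lower. siGGGGGC changed 629 genes (3.72%) at 24 h, 262 higher (1.55%) and 367 lower (2.17%), and 3636 (21.5%) at 48 h, 1768 higher (10.5%) and 1868 lower (11%).

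Genes were then sorted into classes by the 3 tests. Late-only genes were called at 48 h, did not pass the adjusted p at 24 h and passed it for the interaction. Not passing at 24 h does not show that there was no effect then. There were 658 late-only genes that were higher (3.89% of all genes tested) and 701 that were lower (4.15%). Growing genes passed the adjusted p at both times in the same direction and for the interaction, and were called at 48 h, with a larger effect then. They numbered 302 higher (1.79%) and 310 lower (1.83%). The growing counts dropped when a library of 24 h was left out. Without siNT1 replicate 1 or 2 at 24 h there were 126 and 143 growing higher and 177 and 180 growing lower genes, and without siGGGGGC replicate 1 or 2 at 24 h there were 166 and 151 higher and 167 and 179 lower genes. Effects that faded were rare. Early-only genes, called at 24 h with no pass at 48 h and a pass for the interaction, numbered 19 higher (0.112%) and 16 lower (0.0946%). Shrinking genes were called at 24 h, passed at 48 h in the same direction and passed for an interaction of opposite sign. They numbered 10 higher (0.0592%) and 7 lower (0.0414%). Reversing genes passed at both times with effects of opposite sign, were called at 1 time or more and passed for the interaction. Of these, 20 ended higher (0.118%) and 37 ended lower (0.219%). Without siNT1 replicate 1 at 24 h the reversing genes fell from 57 to 32, and without siGGGGGC replicate 1 or 2 at 24 h to 36 and 35. Held genes were called at both times in the same direction with no interaction that passed, 113 higher (0.668%) and 180 lower (1.06%), which does not show that their effects were equal.

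**Figure D1:**
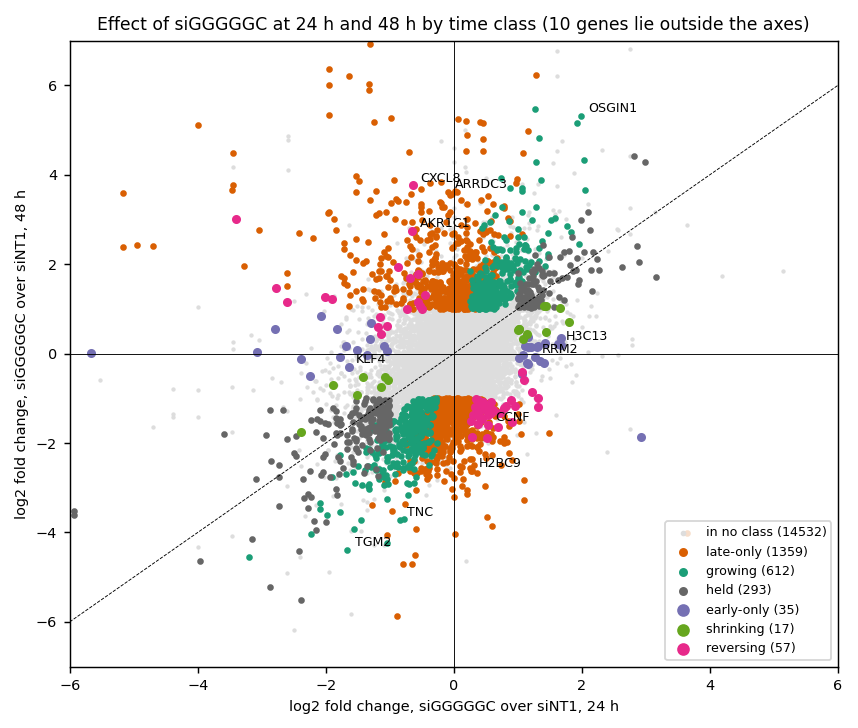
Each point is 1 of the 16905 genes tested, with its log2 fold change of siGGGGGC over siNT1 at 24 h on the horizontal and at 48 h on the vertical axis, coloured by time class, and the dashed line marks equal effects. Late-only genes form the bands above and below the centre, growing genes the steeper diagonal, and 10 genes lie outside the axes.

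The plot of both effects shows late-only genes spread over wide values at 24 h where counts were low. The median late-only higher gene had 73.7 normalised counts and the median growing higher gene 671.2.

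Most of the called time effects were carried by the treated arm. Of the 817 genes called higher, siGGGGGC itself rose from 24 h to 48 h in 613 by the same call rule, siNT1 alone changed in 13 and neither arm was called in 191. Of the 1076 called lower, siGGGGGC itself fell in 693, siNT1 alone changed in 46 and neither arm was called in 337. Over all genes siNT1 changed 258 genes (1.53%) and siGGGGGC 2349 (13.9%) between the times, with 180 up (1.06%) and 78 down (0.461%) for siNT1 and 1225 up (7.25%) and 1124 down (6.65%) for siGGGGGC. The median of the genes called lower was -1.20 in the siGGGGGC arm and 0.21 in the siNT1 arm. These values share libraries with the interaction and describe it.

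Followed forward from 24 h, the early effects mostly stayed. Of the 262 genes that were higher at 24 h, 113 (43.1%) were held, 48 (18.3%) grew, 10 (3.82%) shrank, 19 (7.25%) were early-only and 5 (1.91%) reversed, while 67 (25.6%) fell in no class. Of the 367 that were lower, 180 (49.0%) were held, 65 (17.7%) grew, 7 (1.91%) shrank, 16 (4.36%) were early-only and 10 (2.72%) reversed, with 89 (24.3%) in no class.

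Among the late-only genes that rose was ARRDC3 (chr5:91368631-91383317, minus strand), an alpha-arrestin that sends membrane receptors to degradation. It had 514 and 467 normalised counts with siNT1 and 420.1 and 500.5 with siGGGGGC at 24 h, and 553 and 659 with siNT1 and 7408 and 7569.6 with siGGGGGC at 48 h. Only the siGGGGGC libraries at 48 h stood apart, and the other 6 libraries lay close together. The interaction was 3.72 ± 0.16 (adjusted p = 2.43e-09) on the log2 scale, given here and below as estimate ± standard error of the fit, with 2 libraries per group. ZFAND2A (chr7:1152071-1160759), a proteasome-associated protein induced by proteotoxic stress, had 589.5 and 515 normalised counts in the control and 566 and 528 in the treated libraries at 24 h, then 376 and 459 and 2197 and 2186 at 48 h. Both treated libraries at 48 h were above the other 6 libraries, with an interaction of 2.40 ± 0.16 (adjusted p = 1.42e-07). IL1A (chr2:112773925-112784493), which encodes the alarm cytokine interleukin-1 alpha, had 1058 and 1223 normalised counts with siNT1 and 1293 and 1338 with siGGGGGC at 24 h, and 697 and 829 with siNT1 and 4573 and 4217 with siGGGGGC at 48 h. Here siNT1 went down over time as siGGGGGC went up, with changes of -0.58 and 1.74, and the interaction was 2.32 ± 0.16 (adjusted p = 1.42e-07). ZNF160, a KRAB zinc finger gene of chromosome 19, had an interaction of 1.94 ± 0.15 (adjusted p = 4.34e-07), and TSC22D1, a TGF-beta-stimulated leucine zipper protein, had 1.93 ± 0.14 (adjusted p = 2.42e-07). For both, the siGGGGGC libraries at 48 h exceeded the siNT1 libraries and the siGGGGGC libraries at 24 h, at 1501 and 1361 normalised counts for ZNF160 and 2522 and 2729.6 for TSC22D1. For ZNF160 the siGGGGGC libraries were already above the siNT1 libraries at 24 h, at 307 and 299 against 230 and 251. That effect was 0.33 ± 0.12 (adjusted p = 0.0569) and just missed the cutoff.

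The late-only genes that fell were led by H2B histone genes of the chromosome 6 cluster. H2BC9 (chr6:26251614-26252075, plus strand) had 14414 and 15609.6 normalised counts with siNT1 and 18378 and 18110.2 with siGGGGGC at 24 h, and 11308 and 13062 with siNT1 and 2081 and 1889 with siGGGGGC at 48 h. The siGGGGGC libraries were above the siNT1 libraries at 24 h, without passing the test, and below them at 48 h. The interaction was -2.90 ± 0.15 (adjusted p = 1.14e-08). H2BC7 followed with -2.81 ± 0.18 (adjusted p = 8.87e-08) and H2BC10 with -2.79 ± 0.15 (adjusted p = 1.14e-08), with 48 h siGGGGGC values of 601 and 579 and 1825 and 1765 normalised counts. Near-identical histone copies can share reads, so the split between them is uncertain. GPRC5A (chr12:12891559-12917937), an orphan G protein-coupled receptor induced by retinoic acid, had 1150.4 and 1131 normalised counts in the control and 1506 and 1284 in the treated libraries at 24 h, then 1831 and 1713 and 319.7 and 375 at 48 h. Its treated libraries lay above the controls at 24 h and far below them at 48 h, with an interaction of -2.64 ± 0.15 (adjusted p = 2.47e-08). PODXL, the anti-adhesive sialomucin podocalyxin, had 3672 and 3732 normalised counts with siNT1 and 2968 and 3184 with siGGGGGC at 24 h, and 5891 and 3581 with siNT1 and 703 and 745 with siGGGGGC at 48 h. Its control libraries at 48 h differed widely but did not overlap the treated ones, and the interaction was -2.44 ± 0.24 (adjusted p = 3.29e-06).

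Growing genes were already displaced at 24 h. The growing higher genes were led by OSGIN1 (chr16:83931311-83966332, plus strand), an oxidative stress-induced growth inhibitor and NRF2 target. It had 278 and 292 normalised counts with siNT1 and 1153 and 1102 with siGGGGGC at 24 h, and 325 and 343 with siNT1 and 12996 and 13799 with siGGGGGC at 48 h. Treated libraries exceeded controls at both times, the fold change was 1.98 ± 0.10 (adjusted p = 2.11e-08) at 24 h and 5.32 ± 0.10 (adjusted p = 3.56e-14) at 48 h, and the interaction was 3.34 ± 0.14 (adjusted p = 2.43e-09). SQSTM1 (chr5:179806398-179838078), the autophagy receptor p62, had 2763 and 3104 normalised counts in the control and 7048 and 8008 in the treated libraries at 24 h, then 3618 and 3638 and 54038 and 52852 at 48 h. The controls hardly moved while the treated libraries rose at each time, with an interaction of 2.52 ± 0.15 (adjusted p = 3.77e-08). GABARAPL1 (chr12:10212458-10223128), an ATG8-family protein of the autophagosome membrane, had 326 and 349.6 normalised counts with siNT1 and 641 and 605 with siGGGGGC at 24 h, and 366 and 486 with siNT1 and 5773 and 5454 with siGGGGGC at 48 h. No treated library overlapped a control at either time, and the interaction was 2.83 ± 0.18 (adjusted p = 8.64e-08). RIT1, a RAS-related GTPase, had an interaction of 2.53 ± 0.13 (adjusted p = 1.14e-08), with effects of 0.75 at 24 h and 3.28 at 48 h.

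The growing lower genes included adhesion and matrix genes in which the control rose over time. TNC (chr9:115019575-115118207, minus strand), the matrix glycoprotein tenascin C, had 2629 and 2592 normalised counts with siNT1 and 1406 and 1500.0 with siGGGGGC at 24 h, and 7682 and 5697 with siNT1 and 472 and 542 with siGGGGGC at 48 h. Treated libraries lay below controls at both times, and siNT1 gained 1.36 over time while siGGGGGC changed by -1.52. The interaction was -2.88 ± 0.19 (adjusted p = 9.63e-08). FN1 (chr2:215360440-215436073), fibronectin, had 4958 and 4959.7 normalised counts in the control and 1787 and 1830.3 in the treated libraries at 24 h, then 20024 and 15152 and 1268 and 1402 at 48 h. The interaction of -2.26 ± 0.17 (adjusted p = 2.92e-07) came with a change of 1.83 in siNT1 and -0.44 in siGGGGGC, so most of it lay in the control arm. TRIM55, a muscle RING-finger ubiquitin ligase, had 759 and 839 normalised counts with siNT1 and 468 and 462 with siGGGGGC at 24 h, and 833 and 979.6 with siNT1 and 69.3 and 70.4 with siGGGGGC at 48 h. In TRIM55 the controls stayed level and the treated libraries fell, with an interaction of -2.92 ± 0.17 (adjusted p = 4.47e-08). TGM2, also in this class, is described with the target genes.

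**Figure D2:**
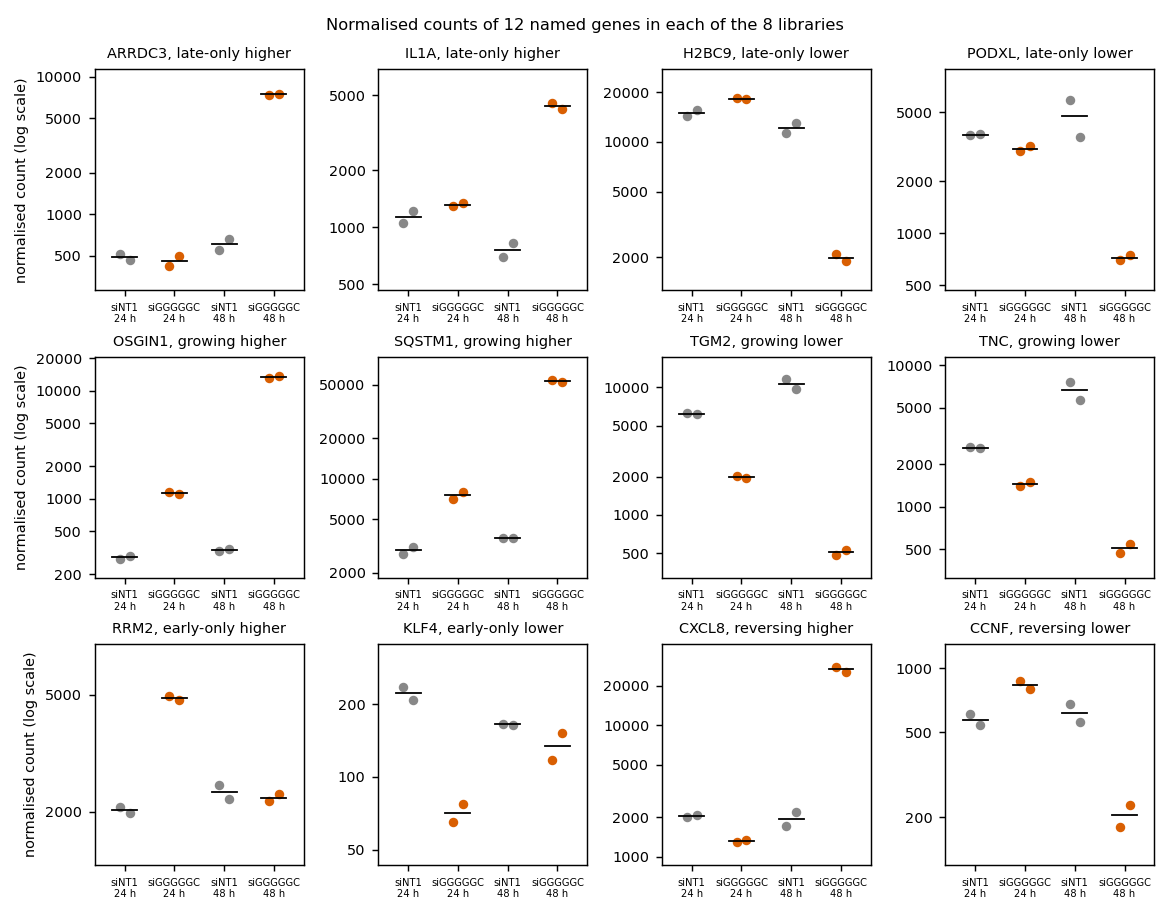
Normalised counts of 12 named genes in the 8 libraries, on a log axis that differs between panels, with siNT1 in grey, siGGGGGC in orange and a line at the mean of the 2 libraries. In the reversing genes CXCL8 and CCNF the orange points pass from one side of the grey points at 24 h to the other at 48 h.

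The plots by library show the rare early-only pattern in RRM2 and KLF4. RRM2 (chr2:10120698-10211725, plus strand), the regulated subunit of ribonucleotide reductase that supplies DNA precursors, had 2078 and 1976 normalised counts with siNT1 and 4967 and 4796 with siGGGGGC at 24 h, and 2461 and 2204 with siNT1 and 2171 and 2289.5 with siGGGGGC at 48 h. The treated libraries stood above the controls at 24 h and overlapped them in range at 48 h. The effect was 1.27 ± 0.11 (adjusted p = 1.43e-06) at 24 h and -0.064 ± 0.10 (adjusted p = 0.625) at 48 h, with an interaction of -1.33 ± 0.15 (adjusted p = 1.24e-05). H3C13, an H3 histone gene, went from an effect of 1.63 to 0.22 with an interaction of -1.41 ± 0.31 (adjusted p = 0.00299). CHST2, a sulfotransferase, had 90.7 and 114 normalised counts in the control and 305 and 243 in the treated libraries at 24 h, then 315 and 306 and 363 and 371 at 48 h. Its controls came closer to the treated libraries by 48 h but stayed below them, with a change of 1.60 in siNT1, and the interaction was -1.18 ± 0.24 (adjusted p = 0.00177).

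Of the early-only lower genes, KLF4 (chr9:107484852-107490482, minus strand), a Krüppel-like transcription factor, had 236 and 208 normalised counts with siNT1 and 65 and 77.2 with siGGGGGC at 24 h, and 166 and 164 with siNT1 and 117 and 151 with siGGGGGC at 48 h. Its treated libraries were far below the siNT1 libraries at 24 h and nearer to them at 48 h, with an interaction of 1.35 ± 0.25 (adjusted p = 8.77e-04). GPR157, an orphan receptor, had an interaction of 1.26 ± 0.21 (adjusted p = 3.68e-04). SPP1, the secreted phosphoprotein osteopontin, had 1055 and 1218 normalised counts in the control and 601 and 498 in the treated libraries at 24 h, then 2439 and 3020.1 and 2946 and 2759 at 48 h. Both arms rose, siNT1 by 1.27 and siGGGGGC by 2.38, and the interaction was 1.11 ± 0.18 (adjusted p = 2.50e-04).

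Shrinking genes kept their sign with a smaller size. The histone gene H2BC26 went from an effect of 1.45 to 0.49 with an interaction of -0.95 ± 0.24 (adjusted p = 0.00845), which no longer passed without replicate 1 of siNT1 at 24 h, at -0.83, and which passed at -0.59 without replicate 1 of siNT1 at 48 h. CARHSP1, an RNA-binding cold shock domain protein, went from 1.08 to 0.32 with an interaction of -0.77 ± 0.15 (adjusted p = 0.0014). GBP1, an interferon-induced GTPase, went from -1.42 to -0.52 with an interaction of 0.90 ± 0.23 (adjusted p = 0.00846). SNAI2, the transcriptional repressor Slug, had 259 and 237 normalised counts with siNT1 and 47.6 and 47.2 with siGGGGGC at 24 h, and 356 and 352 with siNT1 and 101 and 109.8 with siGGGGGC at 48 h. Treated libraries stayed below controls throughout and both arms rose, with an interaction of 0.64 ± 0.20 (adjusted p = 0.0278). This call was lost without replicate 1 of siNT1 at 24 h, without either siGGGGGC library at 24 h and without replicate 2 of siGGGGGC at 48 h, at 0.57, 0.64, 0.63 and 0.57.

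Reversing genes that ended higher included CXCL8 (chr4:73740519-73743716, plus strand), the neutrophil-attracting chemokine interleukin-8. It had 2009.5 and 2088 normalised counts with siNT1 and 1301 and 1339.9 with siGGGGGC at 24 h, and 1722 and 2179 with siNT1 and 27674 and 25529 with siGGGGGC at 48 h. The treated libraries were below the siNT1 libraries at 24 h and above them at 48 h. The fold change was -0.63 ± 0.14 (adjusted p = 0.00478) at 24 h and 3.77 ± 0.15 (adjusted p = 3.71e-11) at 48 h, and the interaction was 4.40 ± 0.20 (adjusted p = 3.28e-09). AKR1C1 (chr10:4963253-4983283), an aldo-keto reductase under NRF2 control, had 675 and 779 normalised counts in the control and 471 and 456 in the treated libraries at 24 h, then 1011 and 1310.1 and 8206 and 7351 at 48 h. It crossed from below to above the controls with an interaction of 3.39 ± 0.17 (adjusted p = 1.14e-08), and its close paralog AKR1C2 can share reads with it. RHOB, a small GTPase of endosomes that stress induces, had 241 and 220.0 normalised counts with siNT1 and 149 and 139 with siGGGGGC at 24 h, and 230.0 and 261 with siNT1 and 816 and 774 with siGGGGGC at 48 h. Its interaction was 2.37 ± 0.17 (adjusted p = 2.63e-07), without overlap of treated and control libraries at either time.

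The reversing genes that ended lower included CCNF (chr16:2429394-2458854, plus strand), cyclin F, the substrate adaptor of an SCF ubiquitin ligase. It had 609 and 541 normalised counts with siNT1 and 869 and 801 with siGGGGGC at 24 h, and 677 and 561 with siNT1 and 179 and 229 with siGGGGGC at 48 h. Treated libraries were above controls at 24 h and below them at 48 h, with effects of 0.54 ± 0.13 (adjusted p = 0.00817) and -1.60 ± 0.14 (adjusted p = 1.26e-07). The interaction was -2.13 ± 0.19 (adjusted p = 1.31e-06). H2BC13 had 4453 and 4843 normalised counts in the control and 6394 and 6929.5 in the treated libraries at 24 h, then 2911 and 2965 and 852 and 728 at 48 h. Its treated libraries were above the siNT1 libraries at 24 h and below them at 48 h, with an interaction of -2.42 ± 0.15 (adjusted p = 5.86e-08). TEDC1, which with tubulin delta and epsilon keeps centriole microtubules, had an interaction of -2.12 ± 0.28 (adjusted p = 4.77e-05) with effects of 0.95 at 24 h and -1.17 at 48 h.

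The study named 10 target genes of siGGGGGC, picked on libraries that included these as fallen, abundant and holding GCCCCC in the 3′ UTR. Neither their fall nor their seed match is therefore independent evidence. All 10 carried the seed match in the annotation used here and were lower at both times. Of the 10, 7 were growing lower and 3 were held. TGM2 (chr20:38127385-38166578), a transglutaminase that crosslinks matrix and binds fibronectin, had 6288 and 6164 normalised counts with siNT1 and 2002 and 1930.4 with siGGGGGC at 24 h, and 11609 and 9729.5 with siNT1 and 484 and 532 with siGGGGGC at 48 h. The treated libraries fell between the times as the controls rose, and the interaction of -2.73 ± 0.14 (adjusted p = 1.14e-08) was made of 0.78 in siNT1 and -1.95 in siGGGGGC. EIF5A (chr17:7306999-7312463), a translation factor with the amino acid hypusine, had 5415 and 5521 normalised counts with siNT1 and 1359.8 and 1211 with siGGGGGC at 24 h, and 8982 and 8753 with siNT1 and 819 and 772 with siGGGGGC at 48 h. It fell further under siGGGGGC and rose under siNT1, by 0.69 and 0.70 on the log2 scale, and had an interaction of -1.39 ± 0.20 (adjusted p = 1.07e-04). APEX1, the main abasic-site endonuclease of base excision repair, had -1.21 ± 0.12 (adjusted p = 5.47e-06), CENPB, a centromere DNA-binding protein, -1.05 ± 0.17 (adjusted p = 3.69e-04), and HMGA1, an architectural chromatin protein, -0.82 ± 0.13 (adjusted p = 3.39e-04). PPP1R14B, an inhibitor of protein phosphatase 1, had -0.54 ± 0.11 (adjusted p = 0.00235), and PES1, a ribosome biogenesis factor, -0.50 ± 0.12 (adjusted p = 0.00563).

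Of the held targets, RHOC (chr1:112701127-112707434, minus strand), a small GTPase of cell motility, had 3789 and 4009 normalised counts with siNT1 and 1171 and 1097 with siGGGGGC at 24 h, and 3566 and 3962 with siNT1 and 1034 and 1155 with siGGGGGC at 48 h. Controls and treated libraries each stayed in place between the times, with effects of -1.78 and -1.78 and an interaction of -0.00024 ± 0.13 (adjusted p = 1), whose 95% interval was -0.27 to 0.27. POLR2E and POLR2K, shared small subunits of RNA polymerases, had interactions of -0.34 ± 0.13 (adjusted p = 0.0595) and 0.27 ± 0.17 (adjusted p = 0.249), with 95% intervals of -0.61 to -0.067 and -0.086 to 0.62. The intervals, unlike the p-values, were not adjusted for the number of genes tested, so the interval of POLR2E can leave out 0. POLR2E passed in 4 of the alternatives. POLR2K was 0.084 without replicate 1 of siNT1 at 48 h and passed at 0.48 without replicate 2. The 5 control genes of the study, chosen there for showing no effect and without GCCCCC, had effects at 24 h near 0. By 48 h VAMP3, a vesicle fusion protein, had an interaction of 0.75 ± 0.14 (adjusted p = 7.36e-04) and TPP2, a cytosolic peptidase, -0.36 ± 0.11 (adjusted p = 0.0262), and the TPP2 call was lost in 6 of 8 fits without a library, at -0.34 to -0.39. PPIL1, RFC3 and UMPS did not pass, at 0.015, -0.25 and -0.22.

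The seed matches of growing and held targets are set side by side. Shown 5′ to 3′ from the transcript strand (GRCh38, GENCODE release 44), with GCCCCC in capitals, are sites in the 3′ UTR of the target with the largest time effect, TGM2, of EIF5A and PES1, which also grew, and of POLR2E, which was held.
TGM2, copy 1, chr20:38130174-38130203, minus strand: agcctgctgagaGCCCCCaccttgatccca
TGM2, copy 2, chr20:38129498-38129527, minus strand: agagaggaggcaGCCCCCtccacaccagtg
TGM2, copy 3, chr20:38128829-38128858, minus strand: tgcagggctaagGCCCCCaaacatagcccc
TGM2, copy 4, chr20:38128676-38128705, minus strand: acagcctccaggGCCCCCcaaatcccaggg
EIF5A, copy 1, chr17:7311851-7311880, plus strand: gaacctgcagagGCCCCCtccccgagcctg
PES1, copy 1, chr22:30576751-30576780, minus strand: gaggcccacccaGCCCCCtacctactgccc
POLR2E, copy 1, chr19:1088635-1088664, minus strand: tgccagaatccgGCCCCCacagctctcacg
The growing targets had 1 to 5 copies each, with 4 in TGM2, 5 in EIF5A, 1 in APEX1, 4 in CENPB, 5 in HMGA1, 2 in PPP1R14B and 3 in PES1. The held targets had 3 in POLR2E, 2 in RHOC and 1 in POLR2K, so the ranges overlapped.

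Across all genes with an annotated 3′ UTR, the median effect at 48 h was lower with more copies of GCCCCC, and the order was weak at 24 h. At 24 h the medians were 0.040 for 8478 genes with no copy, 0.023 for 2216 with 1, 0.027 for 916 with 2 and -0.048 for 787 with 3 or more. At 48 h they were 0.073, -0.10, -0.17 and -0.27, and for the interaction 0.026, -0.13, -0.18 and -0.21. The share of genes called lower for the interaction was 5.77% with no copy, 9.07% with 1, 11.2% with 2 and 10.8% with 3 or more, beside 6.36% over all genes tested. Median 3′ UTR length rose along the same groups from 1287 to 1946.5, 2266 and 2945 bases, and its part in the result was not tested.

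By class, 31.6% of all tested genes with a 3′ UTR held GCCCCC. The share was 52.8% of growing lower, 50.4% of held lower and 42.5% of late-only lower genes. Among genes that were higher it was 20.5% of growing, 26.2% of late-only and 32.2% of held genes. The classes with few genes did not divide in this way, with 5 of 9 shrinking higher and 3 of 5 shrinking lower, 8 of 16 reversing higher and 11 of 33 reversing lower, and 5 of 16 early-only higher and 1 of 8 early-only lower genes. The median 3′ UTR was 1830 bases in growing lower and 1733.5 in growing higher genes, 1353 in late-only lower and 1642 in late-only higher genes. Only this word and only the transcript strand were searched, since a guide pairs with the transcript. Over all annotated protein-coding genes 5806 of 19248 (30.2%) held the word. A match is only a word in the sequence and does not show that the guide bound there.

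**Figure D3:**
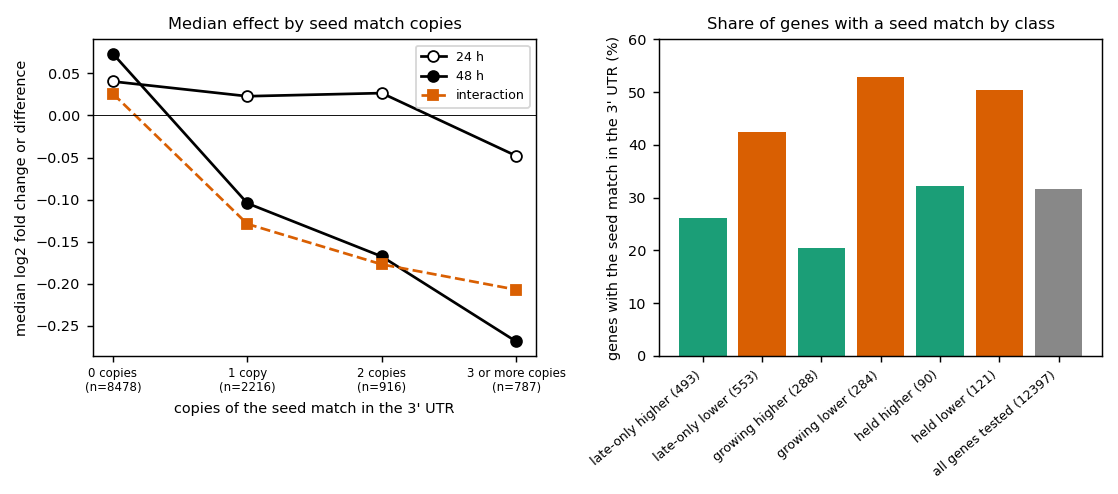
Left, the median log2 effect at 24 h (open), at 48 h (filled) and the interaction (squares) of genes by number of GCCCCC copies in the 3′ UTR; right, the share of genes with GCCCCC in the late-only, growing and held classes, with the number of genes in brackets. The 24 h line is nearly flat between 0.040 and -0.048, the 48 h line falls to -0.27, and the growing lower bar is the tallest of those drawn at 52.8%.

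Genes of proliferation moved from slightly higher at 24 h to lower at 48 h. Of 35 tested DNA replication genes, 27 passed for a downward interaction at an adjusted p below 0.05 and 0 for an upward one, beside 15.2% and 13.4% of all genes tested. At 24 h, 15 of the 35 were higher and 0 lower, and at 48 h 2 were higher and 23 lower, where 10.6% and 8.32% of all genes passed at 24 h and 27.8% and 27.5% at 48 h. Their median effect was 0.24 at 24 h and -0.40 at 48 h, with a median interaction of -0.83 beside -0.011 for all genes. MCM7 (chr7:100092233-100101940), a subunit of the replicative helicase, had 4842 and 4897 normalised counts in the control and 5818 and 5886 in the treated libraries at 24 h, then 4572 and 4504 and 2240.0 and 2460.4 at 48 h. Its treated libraries moved from the top to the bottom of the 8, and the interaction was -1.21 ± 0.12 (adjusted p = 4.33e-06). GINS2, of the helicase-activating GINS complex, had -1.05 ± 0.17 (adjusted p = 3.35e-04). In the siNT1 arm the list median changed by -0.10 and in the siGGGGGC arm by -0.81.

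Mitotic genes showed the same course, with 22 of 26 passing downward and 0 upward, and a median effect of 0.39 at 24 h and -0.58 at 48 h. Shares of all genes tested were 15.2% downward and 13.4% upward, here and for the counts that follow. Among the 9 cyclins and kinases 8 passed downward, and among the 17 spindle and kinetochore genes 14. AURKB (chr17:8204733-8210600), the kinase of the chromosomal passenger complex, had 2066 and 2103 normalised counts with siNT1 and 2106 and 2178 with siGGGGGC at 24 h, and 1685 and 1728 with siNT1 and 502 and 482 with siGGGGGC at 48 h. Its treated libraries lay just above the controls at 24 h and far below them at 48 h, with an interaction of -1.83 ± 0.12 (adjusted p = 8.64e-08). CENPE, a kinetochore motor, was growing lower with -1.60 ± 0.15 (adjusted p = 3.29e-06), and INCENP, the scaffold of the passenger complex, reversed with -1.55 ± 0.19 (adjusted p = 3.19e-05). CCNB1, cyclin B1, and AURKA also reversed, with effects of 0.38 and 0.37 at 24 h and -1.03 and -1.05 at 48 h. Of 20 G1 cyclin and E2F genes, 9 passed downward and 1 upward. They included CDC25B, a phosphatase that activates cyclin-dependent kinases, at -1.81 ± 0.18 (adjusted p = 3.42e-06), the repressor E2F8 at -1.47 ± 0.24 (adjusted p = 3.19e-04) and CDK2 at -0.94 ± 0.13 (adjusted p = 8.73e-05), while CCND3, cyclin D3, passed upward at 0.42 ± 0.13 (adjusted p = 0.0266).

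Replication-dependent histone genes, whose messages rise in S phase and end in a stem-loop in place of a poly(A) tail, had the lowest median interaction of the lists, -1.34. Of 22 tested, 14 were higher and 0 lower at 24 h, 1 higher and 16 lower at 48 h, and 18 passed for a downward and 0 for an upward interaction. Over all genes tested 10.6% passed as higher and 8.32% as lower at 24 h, and 27.8% and 27.5% at 48 h. For the interaction 15.2% passed downward and 13.4% upward. Beside H2BC9 and H2BC7, H2BC14 passed with -2.70 ± 0.22 (adjusted p = 6.10e-07). H2AC16, H4C13, H1-3 and H2BC13 reversed. The median change between times was -0.52 in siNT1 and -1.87 in siGGGGGC. Libraries were made from ribosome-depleted total RNA, without poly(A) selection.

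Targets of p53, ATF4 and NRF2 moved upward, and their counts stand beside 13.4% upward and 15.2% downward of all genes tested. Of 25 p53 targets, 11 passed upward and 0 downward, with a median effect of 0.049 at 24 h and 0.52 at 48 h. PMAIP1 (chr18:59899996-59904305), the BH3-only death protein NOXA, had 1088 and 1133 normalised counts with siNT1 and 1696 and 1714 with siGGGGGC at 24 h, and 1028 and 1088 with siNT1 and 5497 and 5544 with siGGGGGC at 48 h. It was above the controls at both times, further at 48 h, with an interaction of 1.76 ± 0.12 (adjusted p = 1.08e-07). SESN2, a stress-induced inhibitor of mTORC1, had 1.28 ± 0.20 (adjusted p = 1.94e-04) and BTG1, an anti-proliferative factor, 1.18 ± 0.13 (adjusted p = 1.42e-05). CDKN1A, the cyclin-dependent kinase inhibitor p21, went from -0.35 at 24 h to 0.75 at 48 h. Several of these genes are also induced through ATF4, so the list is not specific to p53.

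In the integrated stress response, of 19 genes of the ATF4 branch 12 passed upward and 0 downward, with a median effect of -0.049 at 24 h and 0.93 at 48 h. DDIT4 (chr10:72273919-72276036), the mTORC1 inhibitor REDD1, had 38.2 and 40.6 normalised counts in the control and 47.6 and 22.9 in the treated libraries at 24 h, then 37.2 and 30.9 and 329 and 329 at 48 h. Of the 8 libraries only the treated ones at 48 h were high, and the interaction was 3.44 ± 0.37 (adjusted p = 8.81e-06). DDIT3, the transcription factor CHOP, had 2.67 ± 0.22 (adjusted p = 7.98e-07) and ATF3, a stress-induced partner of it, 2.64 ± 0.24 (adjusted p = 1.85e-06). The 12 genes of the ATF6 and XBP1 branches divided, with 4 upward and 3 downward. The endoplasmic reticulum chaperones CALR (-0.93 ± 0.15 (adjusted p = 2.78e-04)), HSP90B1 (-0.61 ± 0.20 (adjusted p = 0.0318)) and MANF (-0.37 ± 0.13 (adjusted p = 0.0489)) went down. Of 20 cytosolic tRNA synthetases 8 passed upward and 3 downward, the latter near the 15.2% of all genes tested, with examples in CARS1, the cysteine enzyme, at 1.01 ± 0.12 (adjusted p = 2.79e-05) and FARSA, for phenylalanine, at -0.67 ± 0.18 (adjusted p = 0.011).

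NRF2 is a transcription factor that turns on glutathione, iron and xenobiotic detoxification genes. Its response was the most complete of the upward lists, with 21 of 24 members passing upward and 0 downward. The median effect was 0.46 at 24 h and 1.61 at 48 h, and 13 members were growing higher. GCLM (chr1:93885199-93909456), the regulatory subunit of the rate-limiting enzyme of glutathione synthesis, had 1215 and 1157 normalised counts with siNT1 and 2074 and 2035 with siGGGGGC at 24 h, and 1113 and 1142 with siNT1 and 7141 and 6595 with siGGGGGC at 48 h. Treated libraries exceeded controls at both times, with an interaction of 1.81 ± 0.13 (adjusted p = 1.54e-07). NQO1, a quinone reductase, had 25014 and 25174 normalised counts in the control and 41571 and 42918 in the treated libraries at 24 h, then 25699.7 and 28098 and 130802 and 136777 at 48 h. Treated libraries were again higher at both times, with an interaction of 1.56 ± 0.15 (adjusted p = 3.21e-06). AKR1B10, at low counts, had 3.42 ± 0.77 (adjusted p = 0.0037). The NRF2 gene itself, NFE2L2, went from 0.39 to 1.64, and KEAP1, which targets NRF2 for degradation, from 0.60 to 1.23. The medians between times were 0.20 in siNT1 and 1.59 in siGGGGGC.

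Autophagy genes, which build the vesicle that delivers cargo to the lysosome, passed upward in 11 of 32 and downward in 0. Of the 9 ATG8 proteins and receptors 5 passed, with a median effect of 0.18 at 24 h and 0.82 at 48 h, and of the 23 core genes 6, with 0.15 at 24 h and 0.38 at 48 h. RB1CC1, the FIP200 scaffold of the initiating kinase complex, had 1.11 ± 0.12 (adjusted p = 8.26e-06). Of 36 lysosomal genes 15 passed upward, beside 13.4% of all genes tested, and 4 downward, beside 15.2%. The proton pump stood out less by size than by count, with 8 of 14 V-ATPase subunits upward and 0 downward, led by ATP6V0A1 at 1.04 ± 0.16 (adjusted p = 1.90e-04). GLA, alpha-galactosidase A, had 1.61 ± 0.17 (adjusted p = 6.02e-06).

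Inflammatory genes were mixed at 24 h and higher at 48 h. Of 22 tested, 5 were higher and 6 lower at 24 h, against 20 and 1 at 48 h, and 16 passed upward and 1 downward for the interaction. Over all genes tested 10.6% passed as higher and 8.32% as lower at 24 h, 27.8% and 27.5% at 48 h, and 13.4% and 15.2% for the interaction. The median effect was 0.046 at 24 h and 1.37 at 48 h. Besides CXCL8 and IL1A, CCL20, a chemokine for lymphocytes and dendritic cells, passed at low counts with 2.32 ± 0.54 (adjusted p = 0.00472). CXCL2 and CXCL3, chemokines of the CXCL8 group, reversed as well, from -1.04 and -1.13 to 0.62 and 0.44. IL6ST (chr5:55935095-55995022), the shared receptor subunit gp130 of the IL-6 family, had 4146 and 4479 normalised counts with siNT1 and 4155 and 4580.1 with siGGGGGC at 24 h, and 4845 and 4618 with siNT1 and 17224 and 15794 with siGGGGGC at 48 h. It was flat until the treated libraries rose at 48 h, with an interaction of 1.78 ± 0.16 (adjusted p = 1.32e-06). SOCS3, the feedback inhibitor of that receptor, passed downward with -0.54 ± 0.16 (adjusted p = 0.0231).

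AP-1 and immediate early genes passed upward in 12 of 20, beside 13.4% of all genes tested, and downward in 4, beside 15.2%. EGR1 (chr5:138465479-138469303) had 4.77 and 2.62 normalised counts in the control and 10.1 and 8.58 in the treated libraries at 24 h, then 1.55 and 4.01 and 240.3 and 223 at 48 h, and its interaction of 4.94 ± 0.88 (adjusted p = 6.68e-04) is imprecise, with only a few counts in the controls. FOS, a subunit of AP-1, had 62.1 and 55 normalised counts with siNT1 and 98.2 and 98.7 with siGGGGGC at 24 h, and 58.1 and 57.9 with siNT1 and 872 and 895 with siGGGGGC at 48 h. Treated libraries were above controls at both times, and the interaction was 3.18 ± 0.21 (adjusted p = 1.25e-07). FOSB, its relative, passed with 3.86 ± 0.62 (adjusted p = 3.04e-04). KLF6, a zinc finger factor, passed downward with -1.40 ± 0.19 (adjusted p = 8.16e-05), as did FOSL2 with -0.94 ± 0.13 (adjusted p = 6.54e-05) and KLF2 with -0.82 ± 0.26 (adjusted p = 0.0275).

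Matrix genes came apart between the arms. Of 37 tested, 21 passed downward and 1 upward, with a median effect of -0.022 at 24 h and -0.84 at 48 h. The counts here and for the lists that follow stand beside 15.2% downward and 13.4% upward of all genes tested. Over time the median of the matrix list was 0.52 in siNT1 and -0.20 in siGGGGGC. Among 20 matrix proteins 12 passed downward, and among 17 processing and hyaluronan genes 9. MMP14, a membrane-bound matrix protease, reversed with -1.86 ± 0.12 (adjusted p = 1.01e-07). LAMA4, a laminin chain near the detection limit, had -4.18 ± 1.16 (adjusted p = 0.0133). P4HA1, a collagen prolyl hydroxylase also induced by hypoxia, was the exception at 1.20 ± 0.14 (adjusted p = 2.06e-05). Integrins, the matrix receptors, passed downward in 3 of 9, namely ITGA6 at -1.46 ± 0.13 (adjusted p = 1.05e-06), ITGA3 at -1.32 ± 0.14 (adjusted p = 6.32e-06) and ITGA2 at -0.94 ± 0.21 (adjusted p = 0.00384), and upward in ITGAV at 1.12 ± 0.13 (adjusted p = 1.83e-05). Of 20 YAP-TEAD targets 9 passed downward and 2 upward, the latter below the share of all genes. They included the receptor kinase AXL at -1.90 ± 0.15 (adjusted p = 5.28e-07) and CCN2, a secreted matricellular protein, at 0.76 ± 0.20 (adjusted p = 0.0105).

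Of 33 ribosome biogenesis genes 16 passed downward and 1 upward, with a median effect of -0.087 at 24 h and -0.56 at 48 h. The counts of this paragraph stand beside 15.2% downward and 13.4% upward of all genes tested. NCL (chr2:231453531-231483641), nucleolin, had 6796 and 6564 normalised counts in the control and 6889 and 5552 in the treated libraries at 24 h, then 20237 and 16042 and 5913 and 6293 at 48 h. The controls rose over time while the treated libraries stayed near their 24 h level, with changes of 1.44 and -0.028 and an interaction of -1.47 ± 0.42 (adjusted p = 0.0163). UBTF, the activator of RNA polymerase I, had -1.47 ± 0.18 (adjusted p = 3.47e-05), RRS1, a 60S assembly factor, -1.45 ± 0.37 (adjusted p = 0.00806), and NOP58, a box C/D small nucleolar protein, was the upward exception at 0.43 ± 0.14 (adjusted p = 0.0338). The 77 cytosolic ribosomal protein genes passed with 5 upward and 2 downward, both below those shares. Their median interaction was 0.15, and RPL28 at -1.25 ± 0.32 (adjusted p = 0.0092) lay farthest from it. Heat shock chaperones passed downward in 9 of 15 and upward in 1. HSPA1A, the inducible HSP70, had -1.71 ± 0.14 (adjusted p = 6.27e-07), HSPB1, a small chaperone, -1.38 ± 0.26 (adjusted p = 0.0011), and DNAJB4, an HSP40, rose with 1.65 ± 0.13 (adjusted p = 6.06e-07). HSPA1A and HSPA1B are near-identical copies and can split reads. Proteasome genes passed upward in 12 of 31 and downward in 2, the latter below the share of all genes. None went beyond a log2 difference of 1, with PSMB1 at 0.62 ± 0.15 (adjusted p = 0.00555) and PSMC5 at -0.88 ± 0.24 (adjusted p = 0.0127).

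**Figure D4:**
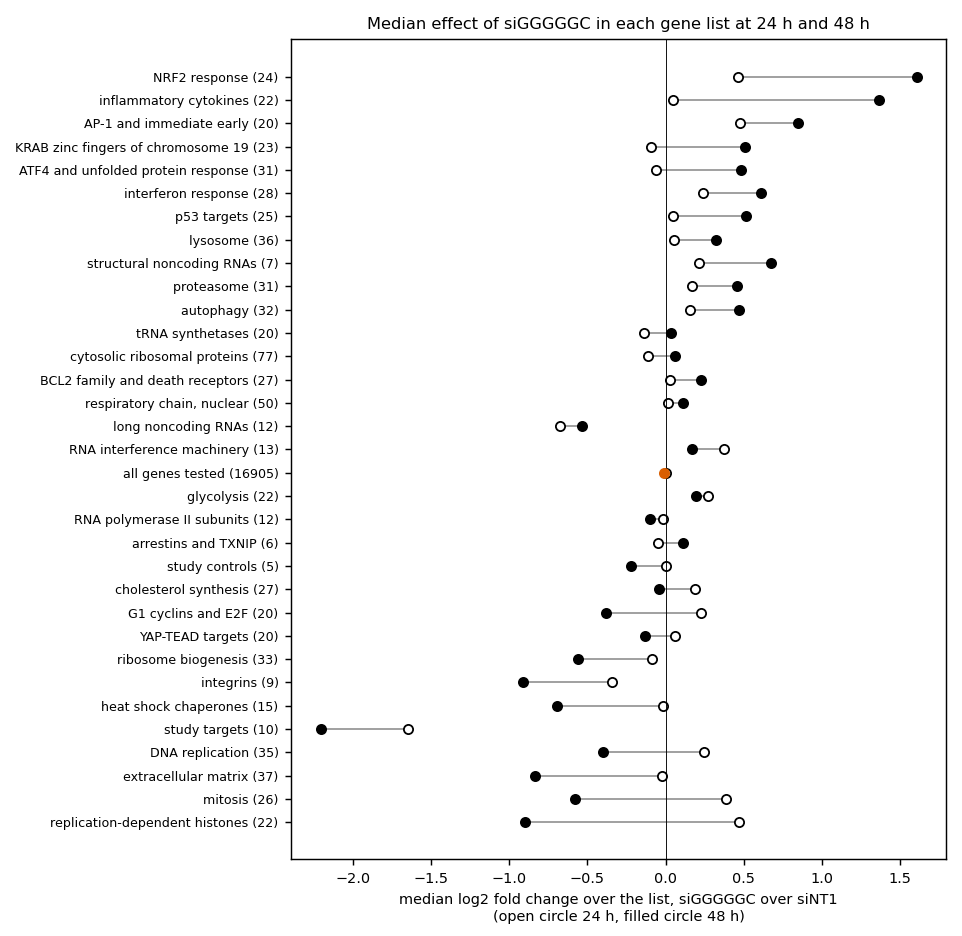
Median log2 fold change of siGGGGGC over siNT1 in each gene list at 24 h (open circle) and 48 h (filled circle), ordered by median interaction, with the number of tested genes in brackets and the value of all genes in orange. The NRF2 list ends at 1.61, the target list at -2.20, and the histone, mitosis and DNA replication lists cross from above 0 to below 0. The lists of G1 cyclins and E2F, YAP-TEAD targets, cholesterol synthesis and study controls also cross downward, as does, barely, the value of all genes.

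**Figure D5:**
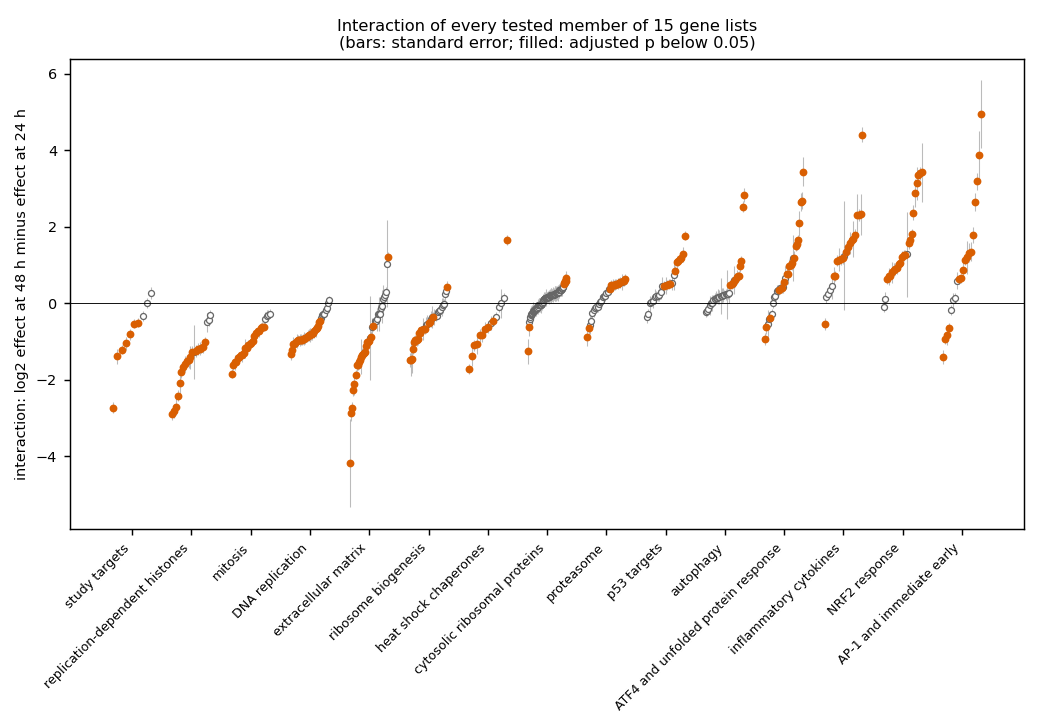
Interaction of every tested member of 15 lists, ordered within each list, as log2 effect at 48 h minus effect at 24 h with its standard error, and filled orange where the adjusted p was below 0.05. No filled point of the DNA replication, mitosis or histone lists lies above 0, and none of the NRF2, autophagy or p53 lists lies below 0.

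The plot of list medians puts the lists in order of their time course, and the plot of members shows how even each list was. The NRF2, DNA replication, mitosis and histone lists had members passing in 1 direction only, while the unfolded protein response and AP-1 lists held members of both signs. The lists were written with earlier results of these data known, so how even they are is not independent evidence. Direction of every list median named above was the same under each normalization, filter and left-out library tried. Size was less stable. Over all lists and alternatives, 116 of 544 median interactions moved by more than their spread between replicates.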

How the data were processed

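RNA of 8 libraries of HeyA8 cells was compared, siNT1 and siGGGGGC at 24 h and 48 h with 2 libraries each, and the 2 siGGCAGU libraries at 48 h entered the fit only to estimate the spread. Groups and replicate numbers came from the sample labels. Libraries were prepared from total RNA after ribosomal RNA depletion. The submitters' processing notes name TopHat, Bowtie2, HTSeq, DESeq2 and hg38, and the methods name other tools too, so the aligner, the annotation release and the strand setting of the counting are uncertain. The authors deposited raw counts per gene for each library, whole numbers without normalization for 58395 genes, with 0 entries that name no gene. Reads matching several places are usually dropped in such counting, which lowers near-identical genes. Genes of the mitochondrial genome are listed at 0 in every library. The authors' tables of comparisons hold their own fold changes and p-values and were not used.

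Raw counts were fitted in edgeR 4.0.16 (R 4.3.3) after TMM normalization and filterByExpr, and contrasts were tested by quasi-likelihood F tests in a single fit of 10 libraries and 5 groups, which left 5 residual degrees of freedom and 16905 genes. Benjamini-Hochberg adjustment ran over these genes. Standard errors were the size of the log2 difference divided by the square root of F, so they rest on the spread in the whole fit. Normalised counts are counts scaled by TMM library size to a mean library of 25983000. Gene positions and the longest 3′ UTR of protein-coding transcripts came from GENCODE release 44 on GRCh38, which held 98.9% of the gene identifiers. Depth was 19781445 to 42428986 counts, and the biological coefficient of variation between duplicates was 0.084. Counting error adds to it and is larger in genes with few counts. Permuting labels of 2 against 2 libraries cannot reach a p of 0.05, so no such test was run.

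Genes were named by a rule. It took the 10 target and 5 control genes of the study. It added, in each class and direction, the protein-coding genes with the largest interaction (5 late-only, 4 growing, 3 early-only or reversing, 2 shrinking), with a mean of at least 500 normalised counts (late-only, growing) or 100 (others) and without overlap of treated and control libraries at the times that define the class. Last came up to 3 members per direction of each gene list. Other list members were added after their values were seen, as examples of a role. The 33 lists with 824 entries, the classes and the members were chosen with earlier results of these data known. The fitting steps were tested on simulated data, in which edgeR and limma-voom recovered more of the changed genes than DESeq2. The simulated counts were drawn with the dispersions that edgeR had estimated, so they cannot rank the tools for these data. The bar for recovery was lowered and limited to edgeR after a first, stricter one had not been met by DESeq2. Alternatives were the 8 libraries alone, other normalizations (RLE, upper quartile), DESeq2 1.42.0, limma-voom (limma 3.58.1), other filters, a replicate block, omission of RN7SL2 and SNORD3A, and each library left out. Some members of these lists are not reported here.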

Additional observations from a re-analysis of the deposited data

Results flagged for a closer look

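The interaction test itself marks effects of siGGGGGC that differ between 24 h and 48 h. It called 1893 genes. Of the genes named by rule, those listed next passed at an adjusted p below 0.05 in edgeR's quasi-likelihood test, each with its log2 interaction. The effect moved upward for VAMP3 at 0.75, ARRDC3 at 3.72, ZFAND2A at 2.40, IL1A at 2.32, ZNF160 at 1.94, TSC22D1 at 1.93, OSGIN1 at 3.34, GABARAPL1 at 2.83, RIT1 at 2.53, SQSTM1 at 2.52, KLF4 at 1.35, GPR157 at 1.26, SPP1 at 1.11, CXCL8 at 4.40, AKR1C1 at 3.39, RHOB at 2.37, GBP1 at 0.90 and SNAI2 at 0.64. It moved downward for EIF5A at -1.39, PES1 at -0.50, TGM2 at -2.73, APEX1 at -1.21, HMGA1 at -0.82, CENPB at -1.05, PPP1R14B at -0.54, TPP2 at -0.36, H2BC9 at -2.90, H2BC7 at -2.81, H2BC10 at -2.79, GPRC5A at -2.64, PODXL at -2.44, TRIM55 at -2.92, TNC at -2.88, FN1 at -2.26, H3C13 at -1.41, RRM2 at -1.33, CHST2 at -1.18, H2BC13 at -2.42, CCNF at -2.13, TEDC1 at -2.12, H2BC26 at -0.95 and CARHSP1 at -0.77. Groups of 2 libraries are too small for a check of single outlying libraries.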

How the results depend on the processing

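Direction and call of the named interactions were stable in most alternatives. Of 816 values for single genes, 782 kept both, 14 lost the call, 5 gained it and 15 changed sign. The changes of sign were in RHOC and PPIL1, whose values of -0.00024 and 0.015 did not pass in the first place. RHOC was 0.0069 with RLE and with DESeq2, 0.038 with upper quartile, 0.000565 with limma-voom, 0.017 at a minimum mean of 50 counts and -0.082 to 0.078 in fits without 1 library, with 0.040, 0.048 and 0.065 among them. PPIL1 was -0.12 without the filter, -0.015 without RN7SL2 and SNORD3A and -0.056 to 0.091 without 1 library, with -0.053, -0.014 and -0.00225 among them. Calls were lost for H2BC26 in 1 alternative, TPP2 in 6 and SNAI2 in 7, and gained for POLR2E in 4 and POLR2K in 1. The cause was not tested.

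Counts depended more on the settings. Without the filter on low counts there were 37 early-only higher, 30 early-only lower, 199 growing higher and 3 shrinking lower genes. At a minimum mean of 50 counts, where fewer genes are tested, 506 genes were called higher, 385 were late-only higher, 12 early-only higher and 5 early-only lower. DESeq2 gave 7 early-only lower and 4 shrinking higher genes, and upper quartile normalization 5 shrinking higher. Membership changed too, so a similar count need not mean the same genes. Of the 16 early-only lower genes DESeq2 kept 5 and limma-voom 11. Of the 658 late-only higher genes DESeq2 kept 421 and limma-voom 625. Class membership also turned over in the fits without 1 library. A test against a log2 difference of 1 gave 138 higher and 188 lower calls. When 1 library was left out, so that the lone library of its group was assumed to vary like the others, calls ranged from 632 to 822 higher and from 918 to 1133 lower, and genes with an adjusted p below 0.05 from 3495 to 4960. Late-only genes ranged from 566 to 678 higher and 586 to 732 lower, growing from 126 to 339 and 167 to 349, early-only from 14 to 29 and 10 to 18, shrinking from 1 to 9 and 1 to 10, and reversing from 32 to 71.

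The replicate number as a block gave 789 higher and 1047 lower calls. Deviations of libraries with the same number correlated by -0.22 to 0.11 between groups over 11507 genes. Each group gives only the difference between its duplicates, so these values cannot settle whether libraries were paired or shared a batch. With 2 wells per group, small effects and sparse genes are the limit of these data.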

Other observations

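Further gene groups were counted in the same way, at an interaction adjusted p below 0.05, beside 13.4% upward and 15.2% downward of all genes tested. KRAB zinc finger genes of chromosome 19, a family of repressors of transposable elements, passed with 12 of 23 upward and 1 downward. Besides ZNF160, ZNF493 had 1.22 ± 0.32 (adjusted p = 0.0103) and ZNF28 1.13 ± 0.15 (adjusted p = 5.09e-05), while ZNF726 had -1.03 ± 0.37 (adjusted p = 0.0471). These genes resemble each other in sequence, and reads of close paralogs can be lost. Interferon response genes passed with 7 of 28 upward and 5 downward. IFIT2, an antiviral RNA-binding protein, had 2.18 ± 0.31 (adjusted p = 1.03e-04) and IFIH1, the sensor MDA5, 1.41 ± 0.49 (adjusted p = 0.0404), whereas IFI35 had -1.27 ± 0.16 (adjusted p = 4.57e-05) and EIF2AK2, the kinase PKR, -0.93 ± 0.21 (adjusted p = 0.00321). Cholesterol synthesis genes divided, with 8 of 27 upward and 10 downward. MSMO1, a sterol demethylase, had 1.27 ± 0.15 (adjusted p = 1.59e-05) and IDI1, which makes dimethylallyl diphosphate, 1.01 ± 0.14 (adjusted p = 1.03e-04), against LSS, lanosterol synthase, at -1.20 ± 0.13 (adjusted p = 1.24e-05) and the regulator SREBF1 at -1.07 ± 0.26 (adjusted p = 0.00609).

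Among arrestins and TXNIP 2 of 6 passed upward and 3 downward. TXNIP, a glucose-responsive arrestin, fell at both times, with effects of -1.99 and -3.61, opposite in sign to its relative ARRDC3 at 48 h, and had an interaction of -1.63 ± 0.17 (adjusted p = 7.91e-06). BCL2 family and death receptor genes passed with 7 of 27 upward and 4 downward, and their median of 0.12 changed sign without the filter on low counts. The BH3-only genes BMF and BIK, both at low counts, had 3.49 ± 0.63 (adjusted p = 6.89e-04) and 2.48 ± 0.64 (adjusted p = 0.00872). Downward went the pro-apoptotic BOK at -0.89 ± 0.15 (adjusted p = 4.17e-04). So did the protective BCL2 at -0.87 ± 0.26 (adjusted p = 0.0182) and BCL2L2 at -0.78 ± 0.28 (adjusted p = 0.0444). Long noncoding RNAs passed with 3 of 12 upward and 1 downward, with a median that changed sign without the filter and without replicate 1 of siNT1 at 48 h. NEAT1, the scaffold of paraspeckles, had 4369.9 and 4566 normalised counts with siNT1 and 5737 and 5615 with siGGGGGC at 24 h, and 5733 and 3995 with siNT1 and 23301 and 23945 with siGGGGGC at 48 h. It exceeded the controls mainly at 48 h, with an interaction of 1.94 ± 0.18 (adjusted p = 2.18e-06), while the small nucleolar RNA hosts SNHG12 and SNHG8 had 0.59 ± 0.16 (adjusted p = 0.0119) and -0.44 ± 0.15 (adjusted p = 0.0382).

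Genes of the RNA interference machinery passed with 1 of 13 upward and 2 downward, namely AGO3 at 0.61 ± 0.14 (adjusted p = 0.00428), DGCR8 at -0.77 ± 0.17 (adjusted p = 0.00391) and DROSHA at -1.14 ± 0.20 (adjusted p = 5.05e-04), around a median of 0.0027 whose sign changed in 6 of the alternatives. Glycolysis genes passed with 4 of 22 upward and 4 downward, with the glucose transporter SLC2A3 at 1.69 ± 0.17 (adjusted p = 5.82e-06) and PFKL at -0.68 ± 0.18 (adjusted p = 0.0117), and a median of -0.04 whose sign changed at a minimum mean count of 50. Nuclear genes of the respiratory chain passed with 4 of 50 upward and 4 downward, and their median of 0.086 changed sign without the filter. RNA polymerase II subunits passed with 0 of 12 upward and 2 downward, the latter POLR2D and POLR2G. Structural noncoding RNAs passed with 0 of 7 upward and 1 downward, the latter RNU6ATAC at -0.85 ± 0.26 (adjusted p = 0.022). Of the markers of the line, KRT8 had -1.91 ± 0.20 (adjusted p = 6.52e-06), KRT18 -1.30 ± 0.13 (adjusted p = 3.61e-06) and PAX8 -1.77 ± 0.20 (adjusted p = 1.42e-05), and 7 of 9 passed downward. The epithelial markers were not uniform. Of 4 tested, 2 passed downward and 2, KRT19 and EPCAM, did not pass, with interactions over the 4 from -1.91 to 0.75.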
